A study of Mus musculus with 9 samples.

Results

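The developmental pluripotency-associated (Dppa) genes were named for their expression in pluripotent cells and not for a common sequence. All 4 members examined here, *Dppa2*, *Dppa3*, *Dppa4* and *Dppa5a*, were taken by symbol from the 15074 genes of the expression table. Levels of *Dppa1* and *Dppa3-ps* were not analysed here. Polyadenylated RNA was measured by RNA-seq in J1 mouse embryonic stem cells (ESCs) of wild type (WT), in *Dnmt1*-/- (1KO) ESCs derived from J1, and in 1KO+1CI ESCs. The latter are 1KO cells with a transgene for DNMT1 carrying the C1229S change that inactivates catalysis, driven by the CAG promoter and linked to zeocin resistance, and were taken as 1 clone. Cells grew with LIF on mitomycin C-treated fibroblast feeders (day 0), which were removed by attachment to gelatin before embryoid bodies were formed without LIF and then plated, and were sampled again at days 2 and 4. There was 1 library for each line and day, 9 in all, so no value has a replicate error and no difference between 2 conditions could be set against the spread between cultures.

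DPPA2 and DPPA4 are nuclear proteins with a SAP domain that bind each other, act at the promoters of developmental genes, help to keep those promoters free of DNA methylation, and can activate *Dux* and other genes of the 2-cell embryo. DPPA3, also called STELLA or PGC7, is a maternal factor and a marker of primordial germ cells. It binds UHRF1, the protein that brings DNMT1 to replicated DNA, and so limits maintenance methylation, and in the zygote it protects 5-methylcytosine from TET3. DPPA5A (ESG1) is a small RNA-binding protein of the KH-domain family, related to OOEP and KHDC3 of the oocyte. *Dppa3* and *Dppa5a* are high in naive pluripotent cells, while *Dppa2* and *Dppa4* are also found in the early epiblast.

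*Dppa4* (chromosome 16, 48283733 to 48294237, plus strand) and *Dppa2* (chromosome 16, 48303908 to 48319723, plus strand) are neighbours with 9671 bases between them in GRCm38 (mm10, GENCODE M21). Their best matching stretch, 191 aligned bases, was 70.7% identical. The 60 ungapped coding bases with the most differences between them, in exon 6 of 7 of both transcripts, are shown because they tell the transcripts apart. Capitals mark the 23 bases that differ, and the stretches lie at chr16:48317413-48317472 and chr16:48293036-48293095.
Dppa2: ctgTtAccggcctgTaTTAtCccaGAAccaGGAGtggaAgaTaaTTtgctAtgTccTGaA
Dppa4: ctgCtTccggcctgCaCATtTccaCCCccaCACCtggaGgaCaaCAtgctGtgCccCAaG

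*Dppa3* (chromosome 6, 122626410 to 122630272, plus strand) has an annotated transcribed processed pseudogene on chromosome X, *Dppa3-ps*, of which 443 of 451 aligned bases are identical to the gene. *Dppa5a* (chromosome 9, 78367052 to 78368177, minus strand) has the unprocessed pseudogenes *Dppa5b* and *Dppa5c* on the same chromosome, which are identical to each other over 348 bases and match 288 of 297 aligned bases of *Dppa5a*. These copies bear on how well reads can be assigned, and the 60 coding bases with the most differences are shown for each gene and its copy, with the differing bases in capitals. For *Dppa3* they are in exon 2 of 4 (chr6:122628606-122628665, plus strand) and in the copy at chrX:37625923-37625982 (minus strand), with 3 differences. For *Dppa5a* they are in exon 2 of 3 (chr9:78367766-78367825, minus strand) and in *Dppa5b* at chr9:78245824-78245883 (plus strand), with 5 differences.
Dppa3: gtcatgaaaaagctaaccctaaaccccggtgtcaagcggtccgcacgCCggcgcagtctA
Dppa3-ps: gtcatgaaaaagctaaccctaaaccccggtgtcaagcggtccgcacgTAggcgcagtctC
Dppa5a: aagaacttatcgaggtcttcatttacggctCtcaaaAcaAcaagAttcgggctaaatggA
Dppa5b: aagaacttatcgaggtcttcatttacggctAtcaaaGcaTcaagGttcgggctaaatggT

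The longest run shared without a difference was 86 bases between *Dppa3* and *Dppa3-ps* and 104 bases between *Dppa5a* and *Dppa5b*. No window of 150 bases, the length of a read, in the *Dppa3* or *Dppa5a* transcript occurred in an annotated transcript of another gene. For *Dppa2*, 461 of 1799 such windows (25.6%) also occurred in *Gm8023* or *Gm9788*, and for *Dppa4*, 168 of 1330 (12.6%) also occurred in *Gm14058*. In windows of 50 bases the shared part was 38.6% for *Dppa5a* (220 of 570), 36.7% for *Dppa2*, 35.9% for *Dppa4* and 17.7% for *Dppa3*. The rule by which the authors handled reads with several alignments is unknown. At 150 bases this makes the levels of *Dppa2* and *Dppa4* less certain. For reads cut to about 50 bases by trimming it would apply to every member, and to *Dppa3* least.

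Levels are given as FPKM, reads per kilobase of transcript scaled to the size of the library, and differences as differences in log2(FPKM + 1). If 1 step in the FPKM values is 1 read, the libraries held between 20200000 (1KO+1CI day 4) and 28100000 (1KO day 0) counted reads. By annotated transcript length, *Dppa2* then had about 760 to 4300 reads in a library, *Dppa4* 860 to 4500 and *Dppa5a* 3300 to 26000, for which the 95% counting error is at most 7.1%. *Dppa3* could be read in whole reads, from 44 to 2048. *Dnmt1*, the targeted gene, was at 74, 13.7 and 315 FPKM in the ESCs of WT, 1KO and 1KO+1CI, and the same order held at day 2 (80.4, 17.4 and 129 FPKM) and day 4 (48.5, 12.3 and 158 FPKM). *Pou5f1*, a marker of pluripotent cells, was between 632 and 1008 FPKM in the 9 libraries. Other markers of these cells did not stay level. From day 0 to day 4 in WT cells, *Sox2* went from 206 to 83.5 FPKM and *Nanog* from 163 to 56.8. *Esrrb* went from 96.5 to 3.81 FPKM, *Klf4* from 30.3 to 0.749 and *Zfp42* from 266 to 31.6. The summed FPKM of 9 feeder fibroblast markers was 119, 244 and 286 in WT, 1KO and 1KO+1CI ESCs, and between 15.5 and 41.6 in the 6 later libraries. *Col1a1* was the highest of these markers at day 0 in every line.

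The genes followed 3 courses. *Dppa3* was more than 2-fold higher in FPKM in both lines without active DNMT1 than in WT cells on each day, and its level dropped steeply with differentiation in all of them. *Dppa2* and *Dppa4* were at or above the WT level at day 0 in 1KO and 1KO+1CI cells and below it at day 4, and in WT cells both were highest at day 2. *Dppa5a*, the most abundant of the 4, fell with differentiation and was lowest at day 4 in 1KO+1CI cells. The plot of levels by line and day shows these courses.

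**Figure D1:**
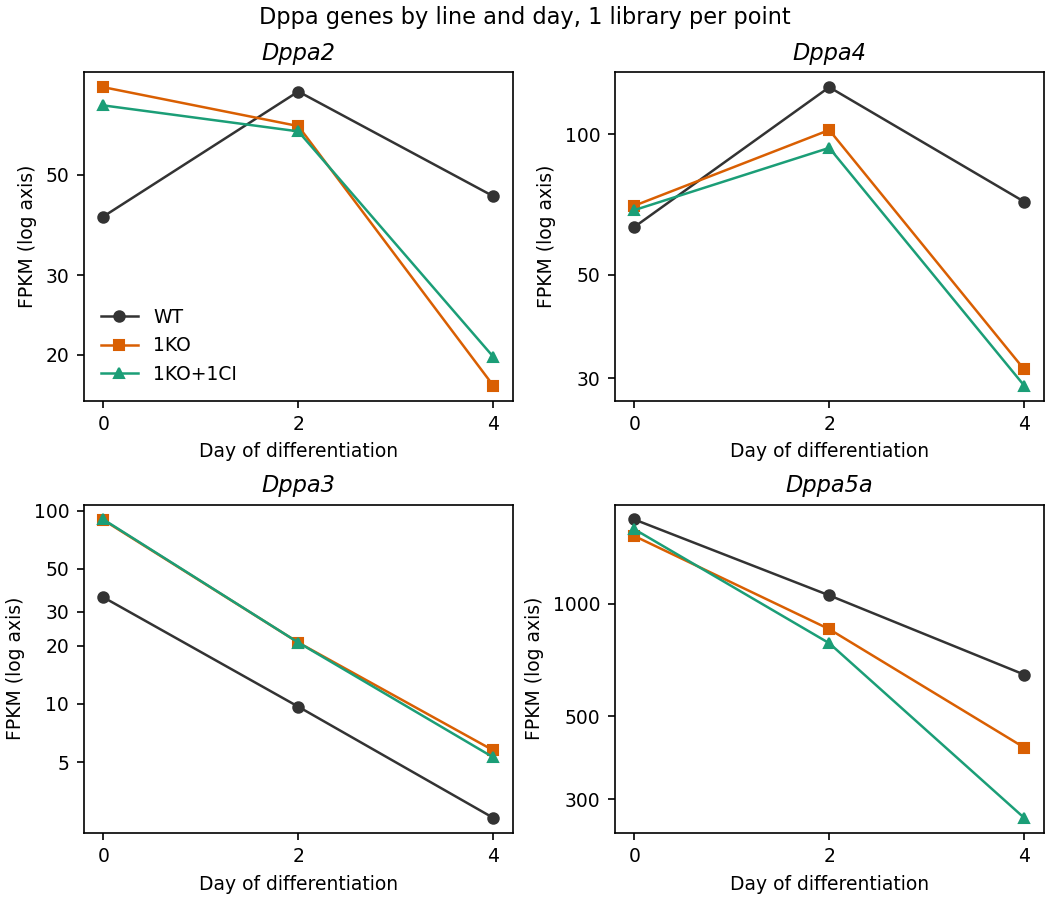
FPKM of each Dppa gene (log axis, its own range in each panel) at days 0, 2 and 4 of differentiation in WT (circles), 1KO (squares) and 1KO+1CI cells (triangles), with 1 library per point and no error bar. *Dppa3* runs in parallel in the 3 lines with WT lowest, and the WT lines of *Dppa2* and *Dppa4* peak at day 2 (76.3 and 126 FPKM) and end above the other lines.

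To see how the levels differ between lines, each library was set against the WT library of the same day. WT ESCs had 35.7 FPKM of *Dppa3*, 1KO ESCs 89.7 and 1KO+1CI ESCs 90.3. After 2 days WT cells had 9.68 FPKM and both other lines 20.8. After 4 days WT cells had 2.57 FPKM, 1KO cells 5.75 and 1KO+1CI cells 5.29. WT was thus the lowest line on each day, and 1KO and 1KO+1CI lay side by side.

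The reads behind these values were 602, 2048 and 1758 for the WT, 1KO and 1KO+1CI lines at day 0, then 192, 356 and 360 reads at day 2 and 44, 106 and 87 reads at day 4. The FPKM ratio of 1KO to WT was 2.51 at day 0 (exact 95% binomial interval, Clopper-Pearson, 2.29 to 2.75), 2.15 at day 2 (1.80 to 2.58) and 2.24 at day 4 (1.56 to 3.26). For 1KO+1CI against WT the ratios were 2.53 (2.30 to 2.77), 2.15 (1.80 to 2.58) and 2.06 (1.42 to 3.03). Between 1KO+1CI and 1KO cells they were 1.01 (0.944 to 1.07), 1.00 (0.862 to 1.16) and 0.921 (0.685 to 1.23), and each of these intervals includes 1. The intervals cover counting error only and would be wider if both reads of a pair had been counted.

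**Figure D2:**
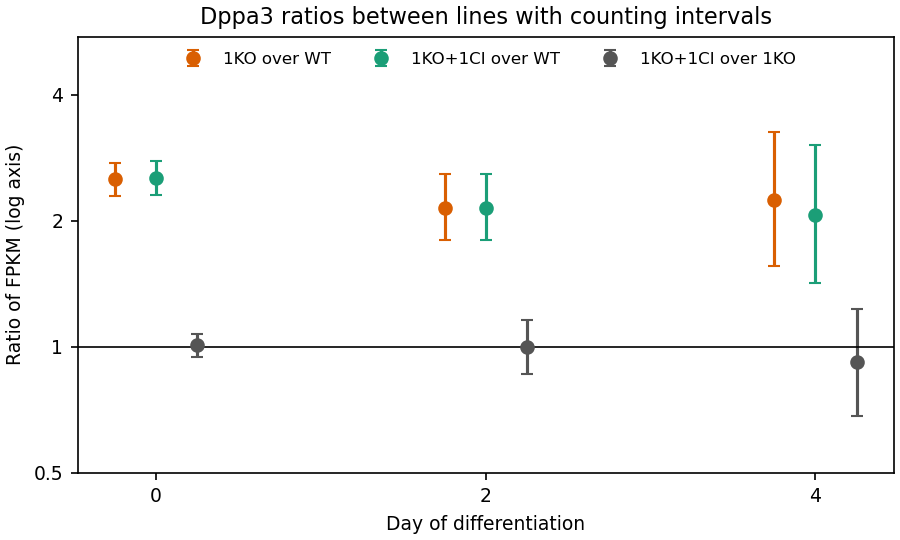
Ratio of *Dppa3* FPKM between lines (log axis) on days 0, 2 and 4, with points offset sideways for legibility and bars for exact 95% binomial intervals that cover counting error only. All 6 ratios to WT are above 2 with intervals above 1, and the 3 ratios of 1KO+1CI to 1KO lie between 0.921 and 1.01.

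As no condition was repeated, the effects of line and of day were fitted additively to the 9 libraries for all 15074 genes (limma, Benjamini-Hochberg adjustment). The error of this fit is the departure of the libraries from parallel courses and not the spread between cultures. *Dppa3* was higher in 1KO than in WT cells by 1.08 ± 0.12 (SE) with an adjusted p of 0.017 in limma, and in 1KO+1CI than in WT cells by 1.05 ± 0.12 with an adjusted p of 0.012. It was the only one of the 4 to pass in either contrast, where 0.610% and 1.82% of all genes passed as higher. The 1KO+1CI minus 1KO difference of *Dppa3* was −0.03 ± 0.12 (adjusted p = 1 in limma), and *Dnmt1* was the single gene called in that contrast (0.00663% of all genes, with 591 genes at an unadjusted p under 0.05). The *Dppa3* calls were lost on leaving out certain libraries. Against WT, the adjusted p of 1KO reached 0.12 without a single library (WT day 2, 1KO day 0, 1KO day 2 or 1KO day 4), and that of 1KO+1CI reached 0.072 (without 1KO+1CI day 0 or day 2), while the differences stayed between 0.93 and 1.18.

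Feeder markers moved with *Dppa3* in part. Their summed level was higher in 1KO and 1KO+1CI than in WT ESCs at day 0 (119, 244 and 286 FPKM), as *Dppa3* was. Later it was 15.5, 27.4 and 41.6 FPKM at day 2 and 15.9, 19.3 and 37.4 FPKM at day 4 in the same order. The part of feeder cells in the *Dppa3* levels was not tested. In bulk RNA, fewer cells that express a gene and less RNA in each cell cannot be told apart.

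WT ESCs had 40.4 FPKM of *Dppa2*, 1KO ESCs 78 and 1KO+1CI ESCs 71.1. Day 2 cells had 76.3, 64 and 62.3 FPKM in the same order, and day 4 cells 44.8, 17.1 and 19.8 FPKM. The lines without active DNMT1 were therefore the higher at day 0 and the lower at day 4. The differences from WT in log2(FPKM + 1) were 0.93 (1KO) and 0.80 (1KO+1CI) at day 0, −0.25 and −0.29 at day 2, and −1.34 and −1.14 at day 4.

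*Dppa4*, which encodes the partner of DPPA2, had 63.2, 70.2 and 68.7 FPKM in WT, 1KO and 1KO+1CI ESCs. It reached 126, 102 and 93.4 FPKM at day 2 and ended at 71.6, 31.3 and 28.9 FPKM at day 4. Its differences from WT were small at day 0 (0.15 and 0.12), below zero at day 2 (−0.30 and −0.43) and larger at day 4 (−1.17 and −1.28). The additive fit called neither gene between lines: for 1KO minus WT, limma gave −0.22 ± 0.38 (adjusted p = 0.85) for *Dppa2* and −0.44 ± 0.26 (adjusted p = 0.48) for *Dppa4*. For *Dppa2* that difference ran from −0.76 to 0.30 on leaving out single libraries, so that its sign was not settled. Such a fit assumes the same line difference on every day, and the residual SD of log2(FPKM + 1) was 0.61 for *Dppa2* and 0.40 for *Dppa4* against 0.13 for *Dppa3*. Whether the line difference changes with day could not be tested with 1 library per condition.

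The FPKM ratio of *Dppa2* to *Dppa4* was nearly constant in WT cells, at 0.639, 0.606 and 0.626 on days 0, 2 and 4. For 1KO it was 1.11, 0.627 and 0.548, and for 1KO+1CI 1.04, 0.667 and 0.685. The ESCs of both lines at day 0 thus stood apart from the other 7 libraries, with more *Dppa2* than *Dppa4* RNA per length.

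WT ESCs had 1682 FPKM of *Dppa5a*, 1KO ESCs 1519 and 1KO+1CI ESCs 1584, and it ranked there between 16 and 19 of all 15074 genes. Cells at day 2 had 1053, 855 and 784 FPKM and cells at day 4 had 646, 412 and 267 FPKM, where its rank was 97, 138 and 194. The lines thus lay close together at day 0 and apart at day 4, with 1KO+1CI the lowest. The differences from WT at day 4 were −0.65 (1KO) and −1.27 (1KO+1CI), and the difference between 1KO+1CI and 1KO was −0.63. In the additive fit none of the line contrasts of *Dppa5a* passed, with −0.37 ± 0.20 for 1KO minus WT (adjusted p = 0.46 in limma), −0.60 ± 0.20 for 1KO+1CI minus WT (adjusted p = 0.16) and −0.23 ± 0.20 for 1KO+1CI minus 1KO (adjusted p = 1). At day 4 the summed FPKM of 9 primitive endoderm markers was 59.5, 80 and 130.3 in WT, 1KO and 1KO+1CI cells, the reverse of the order of *Dppa5a*. *Pdgfra* is on this list and the feeder list. Most of the sum came from *Lamb1* (33.5, 41.9 and 62.7 FPKM) and *Col4a1* (19.3, 24.5 and 46.7 FPKM). Only *Gata4* (1.56, 0.96 and 2.12 FPKM) did not follow the order of the sum. That order of lines was not particular to day 4. The sum was 67.7, 78.6 and 94.6 FPKM at day 0 and 37.3, 50.8 and 76.9 at day 2 in the same lines. The order of *Dppa5a* was the reverse at day 2 but not at day 0. The part of these markers in the *Dppa5a* levels was not tested.

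Counted at 2-fold (a difference of at least 1 in log2(FPKM + 1)), 1 of the 4 genes, *Dppa3*, differed between 1KO and WT at day 0, where 3.79% of all genes did so in either direction, and 1, again *Dppa3*, at day 2 (2.26% of all genes). At day 4, 2 did so, *Dppa2* and *Dppa4*, both lower (2.26% of all genes). Between 1KO+1CI and WT the counts were 1 at day 0 (4.51% of all genes), 1 at day 2 (3.54%) and 3 at day 4 (4.03%), the latter being *Dppa2*, *Dppa4* and *Dppa5a*, all lower. *Dppa3* at day 4 was at 0.92 and 0.82 on this scale, on which adding 1 shrinks the difference between low levels. Between 1KO+1CI and 1KO, 0 of the 4 differed 2-fold at day 0, day 2 or day 4, where 0.418%, 0.338% and 0.915% of all genes did. The median difference of the 4 genes between 1KO and WT was 0.54, −0.28 and −0.91 on the 3 days, beside −0.01, 0.00 and 0.00 over all genes.

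**Figure D3:**
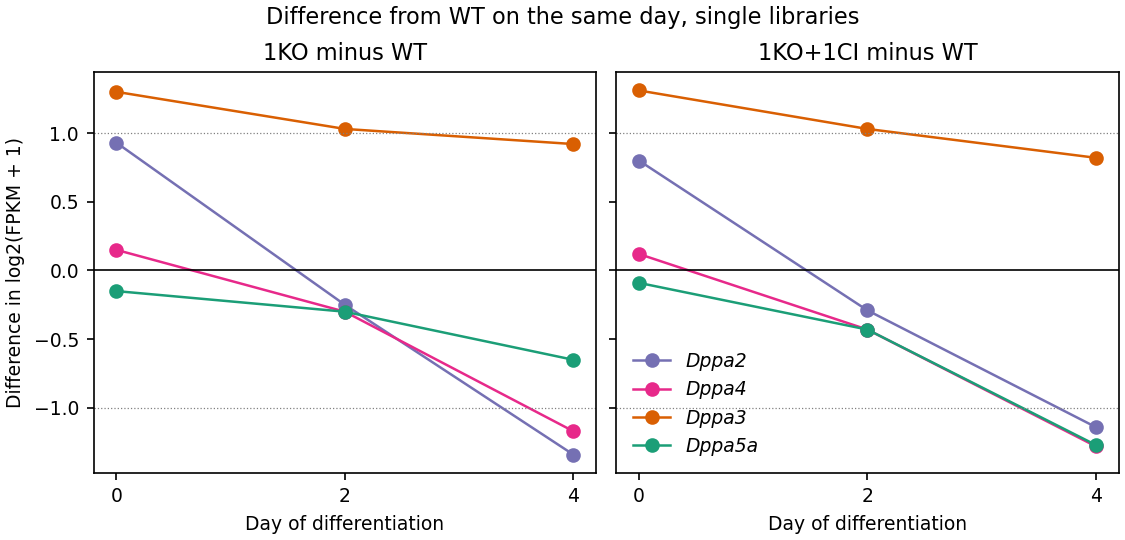
Difference in log2(FPKM + 1) from the WT library of the same day for each Dppa gene in 1KO (left) and 1KO+1CI cells (right), by day, with 1 library on each side of a difference and dotted lines at 2-fold. *Dppa3* stays above 0 on each day (0.82 to 1.31), and *Dppa2* and *Dppa4* cross from above 0 at day 0 to below −1 at day 4.

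To follow differentiation, days 2 and 4 were set against day 0 within each line. *Dppa3* at day 0 exceeded day 4 by 13.9-fold in WT (exact 95% binomial interval 10.2 to 19.4), 15.6-fold (12.8 to 19.1) in 1KO and 17.0-fold (13.7 to 21.4) in 1KO+1CI cells. Over the first 2 days the fold was 3.69 (3.13 to 4.37), 4.31 (3.85 to 4.84) and 4.33 (3.87 to 4.87) in that order. The intervals of the lines overlap in both periods. In the additive fit *Dppa3* fell by 1.97 at day 2 (SE 0.12, adjusted p = 0.00078 in limma) and fell by 3.66 at day 4 (SE 0.12, adjusted p = 3.5e-05 in limma), and neither call was lost on leaving out any library.

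*Dppa5a* fell by 0.84 at day 2 (SE 0.20, adjusted p = 0.036 in limma) and fell by 1.94 at day 4 (SE 0.20, adjusted p = 0.0016 in limma). The day 2 call was lost without any 1 of 6 libraries (the day 2 library of any line, the day 0 library of 1KO or 1KO+1CI, or 1KO day 4), with adjusted p up to 0.15, and with the smaller pseudocounts. Within lines, FPKM at day 0 exceeded that at day 4 2.60-fold, 3.69-fold and 5.94-fold for WT, 1KO and 1KO+1CI.

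*Dppa2* and *Dppa4* did not pass in either day contrast. At day 2 limma gave 0.14 ± 0.38 (adjusted p = 0.83) for *Dppa2* and 0.65 ± 0.26 (adjusted p = 0.13) for *Dppa4*. At day 4 it gave −1.26 ± 0.38 (adjusted p = 0.052) for *Dppa2* and −0.73 ± 0.26 (adjusted p = 0.08) for *Dppa4*. Without the WT day 0 or the WT day 4 library both passed at day 4, with adjusted p down to 0.0036 for *Dppa2* and 0.0067 for *Dppa4*. In WT cells the day 4 levels of both were within 0.18 of day 0, after values 0.90 and 0.98 higher at day 2. In 1KO cells day 4 minus day 0 was −2.12 for *Dppa2* and −1.14 for *Dppa4*, and in 1KO+1CI cells −1.80 and −1.22.

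Of the 4 genes, 2 (*Dppa3* and *Dppa5a*) passed as lower in both day contrasts, where 7.72% of all genes passed as lower at day 2 and 12.0% at day 4. At 2-fold within single lines, 1 of the 4 was lower at day 2 in WT (3.87% of all genes), 1 in the 1KO line (3.32%) and 2 in the 1KO+1CI line (3.32%). At day 4, 2 were lower in WT (4.33% of all genes) and all 4 in 1KO (5.13%) and 1KO+1CI cells (5.59%). The median of the 4 differences from day 0 to day 4 was −0.62, −2.0 and −2.18 for WT, 1KO and 1KO+1CI, beside medians between −0.01 and 0.03 over all genes.

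**Figure D4:**
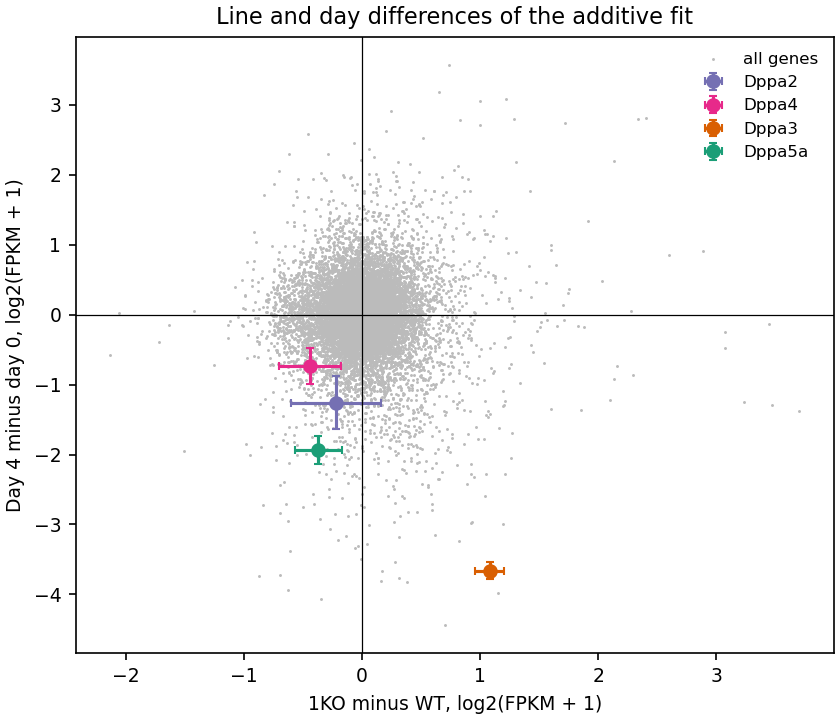
Additive fit of line and day over 9 libraries, with the 1KO minus WT difference on the x axis and the day 4 minus day 0 difference on the y axis, both in log2(FPKM + 1). Grey points are all genes, and coloured points with bars (SE) are the Dppa genes. *Dppa3* lies at 1.08 and −3.66, apart from the other 3, which lie between −0.44 and −0.22 on the x axis.

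When the 9 levels of a gene were ordered and each gap set against its residual SD, 5 of the 8 gaps between neighbours were larger than the SD for *Dppa3*, 3 for *Dppa5a*, and 1 each for *Dppa2* and *Dppa4*. For *Dppa2* and for *Dppa4*, that gap (0.99) set the day 4 libraries of 1KO and 1KO+1CI below all others, and the neighbours above it did not differ beyond the SD. That SD comes from the additive fit to the same 9 values. It holds any change of the line difference with day and is not a measure of noise between cultures. For *Dppa3* the widest gap, 1.30, lay between 1KO and WT at day 0, and the 3 gaps within the SD included those between 1KO+1CI and 1KO on each day. For *Dppa5a* the widest gap, 0.65, lay between WT and 1KO at day 4. The highest level exceeded the lowest by 35.1-fold for *Dppa3*, 6.31-fold for *Dppa5a*, 4.55-fold for *Dppa2* and 4.36-fold for *Dppa4*.

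Pearson correlations of log2(FPKM + 1) over the 9 libraries, which share lines and days and so are not independent, describe which genes ran alike. Among the 4, *Dppa2* and *Dppa4* were most alike (0.903) and *Dppa3* and *Dppa4* least (0.304). Of 13288 genes with at least 1 FPKM in some library, the 5 most like *Dppa2* were *Nup54* (0.979), *Cd2bp2*, *Nqo1*, *Pfas* and *Ppp2r2d* (0.963). *Nqo1*, a quinone reductase, had an even wider range than *Dppa2*, with 17.4, 40.8 and 35.1 FPKM at day 0 and 10.3, 2.60 and 2.82 FPKM at day 4 in WT, 1KO and 1KO+1CI cells.

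The 5 genes most like *Dppa4* were *Ddx11* (0.983), *Smim40*, *Ect2*, *A030001D20Rik* and *Gnl3l* (0.967). *Smim40* peaked in WT at day 2 (36.5 FPKM, against 18.1 in 1KO and 18.4 in 1KO+1CI cells). For *Dppa3* they were *Saa3* (0.99), *Tfeb*, *Stac2*, *Mok* and *Tcp11l2* (0.978), and *Saa3*, an acute-phase protein gene, was at 3.67, 7.05 and 6.91 FPKM at day 0 in WT, 1KO and 1KO+1CI cells and at most 0.336 FPKM at day 4. For *Dppa5a* they were *Cep57l1* (0.994), *Alpl*, *Mical1*, *Cdca2* and *Mir7003* (0.97). *Alpl*, the tissue-nonspecific alkaline phosphatase that stains ESCs and germ cells, was at 49.2, 43.2 and 45.4 FPKM at day 0 and 15.6, 8.71 and 7.75 FPKM at day 4. None of the other 3 members was among the 5 nearest genes of any member.

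Lists of related genes put the 4 in context. Of 15 pluripotency transcription factors, 13 fell by day 4 in the additive fit, where 12.0% of all genes fell, and 0 rose. Their median difference was −3.01, beside 0.01 over all genes. *Klf4* (−4.44), *Zfp42* (−3.94) and *Esrrb* (−3.77), all factors of naive pluripotency, fell most, and *Pou5f1* (0.11, adjusted p = 0.72 in limma) and *Nanog* (−0.78, adjusted p = 0.24) did not pass. Of 9 early germ cell genes, 6 fell (12.0% of all genes did) and 0 rose by day 4 (median −1.82). The largest falls were those of *Tfap2c* (−3.28), *Prdm14* (−3.01) and *Alpl* (−2.06). Of 9 formative epiblast genes, 6 rose and 0 fell (median 1.78), with *Fgf5* at 3.58, where 10.8% of all genes rose. In 1KO against WT cells, none of these 3 lists had a gene that passed in limma, and their medians were −0.12, 0.06 and 0.29. In 1KO+1CI against WT cells, 1 pluripotency gene was higher (*Klf4*, 1.01) and 1 lower (*Klf2*, −1.23). Of 8 primitive streak markers, 7 rose by day 4 (10.8% of all genes did), and their summed FPKM was then 78.4, 288 and 281 in WT, 1KO and 1KO+1CI cells, in the libraries where *Dppa2* and *Dppa4* were lowest in the latter lines. The part of that cell state in the *Dppa2* and *Dppa4* levels was not tested.

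**Figure D5:**
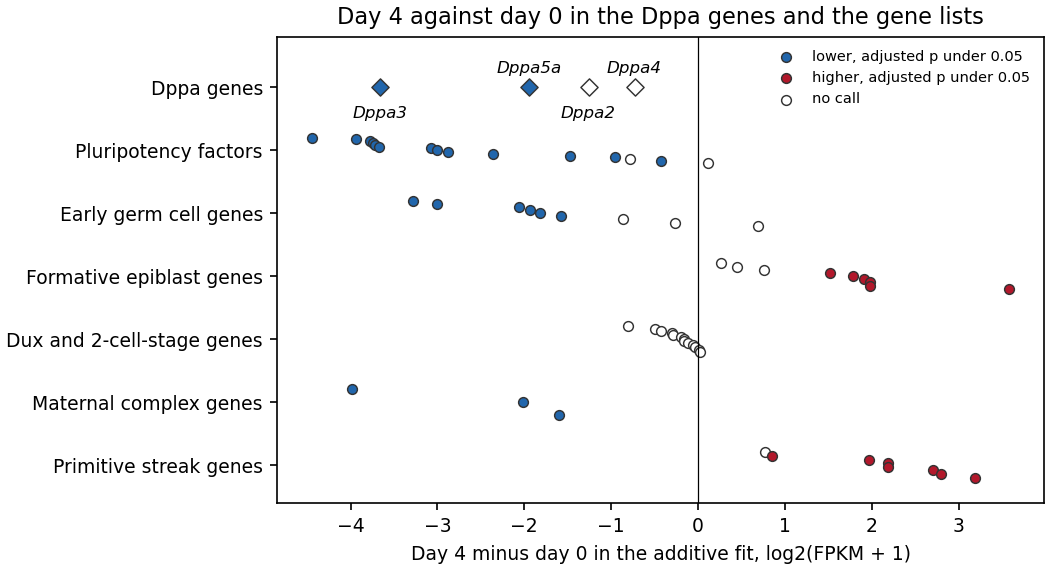
Day 4 minus day 0 in the additive fit, in log2(FPKM + 1), for the Dppa genes (diamonds) and the genes of 6 lists (circles), filled blue or red where lower or higher at an adjusted p under 0.05 and open where not called. *Dppa3* (−3.66) lies among the pluripotency factors that fell most, *Dppa5a* (−1.94) is lower, and *Dppa2* and *Dppa4* are open.

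Of 6 genes for partners and counterparts of DPPA3, only *Dnmt1* itself passed between lines in limma. *Uhrf1*, which encodes the protein that DPPA3 binds, was at 107, 156 and 132 FPKM at day 0, 130, 149 and 138 at day 2 and 90.6, 107 and 99.7 at day 4 in WT, 1KO and 1KO+1CI cells, and its 1KO minus WT difference of 0.33 ± 0.11 had an adjusted p of 0.2 in limma. *Tet3*, whose enzyme oxidizes 5-methylcytosine in the zygote, rose by 0.51 at day 4 (adjusted p = 0.039 in limma) and differed by 0.01 between 1KO and WT. Of the 6, 3 fell by day 4, *Tet2* (−2.28), *Tet1* (−2.03) and *Uhrf1* (−0.39), and 1 rose. Over all genes, 12.0% fell and 10.8% rose. The nuclear import receptor gene *Ipo5* differed by −0.02 between 1KO and WT (adjusted p = 0.94).

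A further list held *Dux* and 2-cell-stage genes downstream of DPPA2 and DPPA4. *Dux*, the transcription factor gene of the 2-cell embryo, was at 0.227 FPKM or less in every library. Of 18 listed genes 13 were in the table. At day 2, 9 of these 13 fell, where 7.72% of all genes did, and 0 rose (median −0.82). *Zscan4d* was at −1.80 and *Zscan4a* at −1.31, while *Dppa2* and *Dppa4* did not pass. At day 4, 0 of the 13 passed in limma, with a median of −0.16. The *Zscan4* and *Usp17l* genes are near-identical copies, so their single values are uncertain. Apart from *Tmem92*, the genes that fell at day 2 were all such copies. Their falls are therefore not separate events to set beside the share of all genes. Levels of the genes that fell were low, at most 6.13 FPKM (*Zscan4d* in 1KO+1CI cells at day 0). *Syce1*, a synaptonemal complex gene, was at 2.37, 9.61 and 13.1 FPKM at day 0 and 3.76, 11.3 and 15 FPKM at day 2 in WT, 1KO and 1KO+1CI cells, and passed for 1KO+1CI minus WT (1.47 ± 0.27, adjusted p = 0.033 in limma) but not for 1KO minus WT (1.12, adjusted p = 0.098). The MERVL-int retrovirus, which DUX activates, had a mean of 1.12, 1.99 and 2.64 FPKM over 169 listed copies at day 0, 1.08, 0.76 and 0.872 at day 2 and 1.78, 3.23 and 2.81 at day 4 in the same order. The MERVL-int level was thus lowest at day 2 in every line, by little in WT. The repeat family MT2_Mm (mean over 145 copies) was lowest at day 2 in 1KO and 1KO+1CI cells (0.612 and 0.719 FPKM). In WT cells MT2_Mm was not lowest at day 2, with 0.867 FPKM at day 0 and 0.891 at day 2. *Dppa4* was at its highest at day 2 in each line. *Dppa2* was highest at day 2 in WT but at day 0 in 1KO and 1KO+1CI cells (78 and 71.1 FPKM). A link between these levels was not tested.

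A list of 8 genes held members of a maternal protein complex and KH-domain relatives of *Dppa5a*. Of these, 3 were in the table, *Ooep*, *Khdc3* and *Tle6*. All 3 fell at day 2 and at day 4, where 7.72% and 12.0% of all genes fell. *Khdc3* fell by 3.98 at day 4, *Ooep* by 2.01 and *Tle6* by 1.60. Between lines, *Ooep* passed and *Khdc3* did not. *Ooep*, 7932 bases from *Dppa5a*, was at 32.8, 15.9 and 13.9 FPKM at day 0, 23.2, 11.9 and 7.74 at day 2 and 7.38, 3.41 and 2.55 at day 4, and was lower in 1KO than in WT cells by 0.95 (SE 0.11, adjusted p = 0.017 in limma). *Khdc3*, on the same chromosome but 5262614 bases away, was at 5.75, 31.3 and 37.3 FPKM at day 0 and at most 0.412 FPKM at day 4, and its 1KO minus WT difference of 1.15 ± 0.43 did not pass (adjusted p = 0.26).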

How the data were processed

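RNA-seq of 9 libraries, 1 for each of WT, 1KO and 1KO+1CI cells at days 0, 2 and 4, was analysed from the FPKM values deposited by the authors for genes and repeat copies. Per the paper's methods, paired reads were trimmed with Trim Galore, mapped to mm10 with HISAT2, converted with SAMtools, and counted and normalized with analyzeRepeats.pl of HOMER. Tool versions, annotation release, strand setting and multi-mapping rules: not given in the sources used here.

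Of 15095 entries, 21 named no gene or a date and were left out (at most 0.108% of summed FPKM). No value was 0 and no column belonged to another sample. Single libraries were compared as differences in log2(FPKM + 1) without a test. An additive fit of line and day (4 residual degrees of freedom) was made on log2(FPKM + 1) of all 15074 genes with limma 3.58.1 in R 4.3.3, with Benjamini-Hochberg adjustment and a threshold of 0.05, and was tested on simulated data. A fit with an interaction has no residual degrees of freedom.

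Depth was recovered from the steps of FPKM values. Of 554 genes with 1 annotated transcript, 539 gave a step within 0.15 of whole multiples, and the most frequent implied depth (168 genes) was used. For *Dppa3*, a length of 813 bases made all 9 values whole within 0.0567 of a read, and the next candidate length came within 0.197. The steps of the other members were less distinct and were not used. Intervals are exact 95% binomial intervals and cover counting error only.

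Annotated positions and transcript sequences came from GENCODE M21 (GRCm38), and alignments were made with Biopython 1.88. The members, gene lists and tests were chosen with earlier results of these data known. Genes named are the members, *Dnmt1*, the 5 genes most correlated with each member, and, of each list, counts with at most the 3 largest differences and those that are neighbours, partners or targets of a member. *Klf2*, *Nanog*, *Pou5f1*, *Sox2*, *Tle6*, *Slc2a3*, *Gata4*, *Lamb1* and *Col4a1* were named after their values were seen, as were MERVL-int and MT2_Mm. So were the genes passing in 1KO+1CI minus WT, a contrast also added afterwards. Alternatives were pseudocounts of 0.1 and 0.01, a common sum, median-ratio scaling (factors 0.982 to 1.02), at least 1 FPKM in some library, a mean-variance trend, and leaving out each library in turn. Other computations ran in Python 3.11.15 (scipy 1.17.1, numpy 2.4.6, pandas 2.3.3, matplotlib 3.10.9).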

Additional observations from a re-analysis of the deposited data

Results flagged for a closer look

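The difference of *Dppa2* from WT had opposite directions at day 0 and day 4, in 1KO cells (0.93 and −1.34 in log2(FPKM + 1)) and in 1KO+1CI cells (0.80 and −1.14). The same held for *Dppa4*, with 0.15 and −1.17 in 1KO and 0.12 and −1.28 in 1KO+1CI cells, although its day 0 differences are small beside the residual SD of 0.40. From day 0 to day 4 the WT difference was above 0 and those of the other lines below, at 0.15, −2.12 and −1.80 for *Dppa2* and 0.18, −1.14 and −1.22 for *Dppa4* in WT, 1KO and 1KO+1CI cells. From day 0 to day 2, *Dppa2* was 0.90 higher in WT cells and differed by −0.28 (1KO) and −0.19 (1KO+1CI) in the other lines. Each value rests on 1 library a side, and the difference between days or lines was not tested. The 2 lines without active DNMT1 are compared with the same WT libraries.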

How the results depend on the processing

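Of 690 alternatives computed for 90 results, 587 kept their side of the threshold or their size, and no called value reversed. Size was judged with a tolerance. A count of genes was kept if it stayed within a set fold of its main value. A difference between single libraries was kept if it moved by at most the residual SD of its gene. That SD was widest for *Dppa2* (0.61) and narrowest for *Dppa3* (0.13). A change of sign counted as kept where the value was called in neither setting. This was so for *Dppa2* in 1KO minus WT (−0.22, and 0.30 without WT day 4). No paired analysis was possible because no replicate numbers pair the samples (1 library for each line and day). The day that the lines share is already a term of the additive fit. Depth limits *Dppa3* at day 4 most (44 reads in WT). With smaller pseudocounts, *Dppa3* differences at day 4 were larger, which follows from adding less to a low level: for pseudocounts of 0.1 and 0.01, 1KO minus WT was 1.13 and 1.16, 1KO+1CI minus WT 1.02 and 1.04, and day 4 minus day 0 −3.75 and −3.79 in WT, −3.94 and −3.96 in 1KO and −4.07 and −4.09 in 1KO+1CI cells. *Dppa5a* at day 2 was −0.84 under both and no longer passed (adjusted p = 0.06 and 0.072 in limma). *Dppa2* at day 4 passed with a common sum (−1.28, adjusted p = 0.046), with genes of at least 1 FPKM (−1.26, 0.044) and with a trend (−1.26, 0.04). The cause was not tested. Genes called higher and lower in 1KO minus WT (92 and 141) were 58 and 11 with 0.1 and 43 and 2 with 0.01. In 1KO+1CI minus 1KO the single gene (*Dnmt1*) became 0 with 0.1, 0.01, a common sum and median-ratio scaling. In 1KO+1CI minus WT, 274 became 174 with 0.01, and 318 became 179 and 105. Genes higher at day 2 (1139) were 680 with 0.01. Leaving out a library gave 5 to 149 genes higher and 0 to 122 lower for 1KO minus WT, 0 to 1 higher for 1KO+1CI minus 1KO, 26 to 334 and 6 to 340 for 1KO+1CI minus WT, 168 to 1369 and 256 to 1374 at day 2, and 461 to 2029 and 821 to 1933 at day 4. For *Dppa3*, 1KO minus WT was 0.97 to 1.18 and 1KO+1CI minus WT 0.93 to 1.15. For *Dppa5a* day 2 was −1.02 to −0.64, for *Dppa2* day 4 −1.80 to −0.93, and for *Dppa4* day 2 0.34 to 0.83 (passing without WT day 4, adjusted p = 0.022) and day 4 −1.10 to −0.53.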

Other observations

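*Nanog*, 77217 bases from *Dppa3*, was at 163, 205 and 232 FPKM at day 0, 89.5, 58.8 and 40.9 at day 2 and 56.8, 171 and 157 at day 4 in WT, 1KO and 1KO+1CI cells, so that the lines without active DNMT1 were above WT at day 0 and day 4 and below it at day 2. *Gdf3*, a TGF-beta family ligand gene 16323 bases from *Dppa3*, was between 29.4 and 52.6 FPKM in all 9 libraries. Of 6 listed neighbours of *Dppa3*, 2 fell at day 2 (*Nanog* at −1.71 and *Slc2a3* at −1.51), where 7.72% of all genes fell. In limma, 0 of the 6 passed at day 4 and 0 in 1KO minus WT. In the latter contrast 2251 genes of the whole table were at an unadjusted p under 0.05. *Morc1*, a germ cell gene 111514 bases from *Dppa2* and the only listed neighbour of *Dppa2* and *Dppa4* in the table, fell by 3.17 at day 4 (adjusted p = 0.00087 in limma) and had 2.84, 1.62 and 1.19 FPKM in WT, 1KO and 1KO+1CI cells then, after 18.5, 22.3 and 34.1 at day 0. Its WT level at day 4 was thus far below day 0, where *Dppa2* and *Dppa4* were near their day 0 level. Of 7 genes listed for the region of *Dppa5a*, 5 fell by day 4 (median −1.43), among them *Ooep*, where 12.0% of all genes fell. Without *Khdc3*, which lies 5262614 bases away on the same chromosome, 4 of 6 fell (median −1.0). That exclusion was chosen after the values were seen. *Eef1a1*, a translation elongation factor gene 110272 bases from *Dppa5a*, differed by −0.02. Of 9 primitive endoderm markers, 1 rose and 1 fell by day 4, and all 9 feeder markers fell at day 2 and day 4. Over all genes, 7.72% fell at day 2, and at day 4 12.0% fell and 10.8% rose. In 1KO+1CI against WT cells, 4 of 9 feeder and 4 of 9 primitive endoderm markers were higher (1.82% of all genes were). *Pdgfra*, which is on both lists, was among them in each.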
